A study of Mus musculus with 12 samples.

Results

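The 10 genes described here serve lipid handling and lysosomal breakdown in macrophages: the receptor pair Trem2 and Tyrobp, the lipid carriers and lipid enzyme Apoe, Fabp5 and Lpl, the galectin Lgals3, the glycoprotein Gpnmb, the lysosomal membrane protein Cd68 and the proteases Ctsd and Ctsb. They were chosen by symbol from the 47747 gene symbols of the count table, with earlier results of DSS against Control in view, so their differences between the groups are a description and no independent test. All 10 passed the filter on low counts, as did 18593 symbols in all. Total RNA of the meninges, the membranes around the brain, was sequenced from 12 C57bl/6 mice, with 1 library per mouse. The treated group is 6 DSS mice, whose drinking water held 2% DSS (dextran sulfate sodium, a sulfated sugar polymer toxic to the gut lining) for 5 days and was then plain. The other group is 6 mice of the same strain labelled Control. Culling was after 6 days, and the labels give neither age nor sex and no transgene or deletion.

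Macrophages take up dying cells and lipoproteins and pass their lipids and proteins to lysosomes, where acid hydrolases break them down. TREM2 is a surface receptor for lipids and lipoproteins; it has no signalling tail and signals through the adaptor TYROBP (DAP12) and the kinase SYK. Gpnmb, Trem2, Apoe, Lpl, Fabp5, Lgals3 and lysosomal genes are known to be raised together in microglia near amyloid plaques and in lipid-laden macrophages of other tissues. The meninges hold resident border-associated macrophages, and the bone next to the dura holds osteoclasts, which share many lysosomal genes with macrophages.

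The genes did not move as 1 block. Of the 10 genes, Lgals3 and Tyrobp rose in DSS mice, Gpnmb and Lpl fell, and Trem2, Apoe, Fabp5, Cd68, Ctsd and Ctsb were not called. That is 4 of 10 called by edgeR's quasi-likelihood test at a Benjamini-Hochberg adjusted p under 0.05, in a comparison that called 4.94% of all tested genes, 3.68% risen and 1.26% fallen. Because the genes were picked with this contrast known, nothing is read from the difference between 4 of 10 and 4.94%. Of the 4 calls, that of Lgals3 alone held when 4 libraries low in choroid plexus markers were left out. Log2 fold changes of the 10 genes ran from -1.02 to 0.72 with a median of 0.06, beside a median of -0.02 over all tested genes. The libraries are whole tissue, so fewer cells of a type and less RNA per cell cannot be told apart. No label says that the mice were housed or processed in batches.

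**Figure D1:**
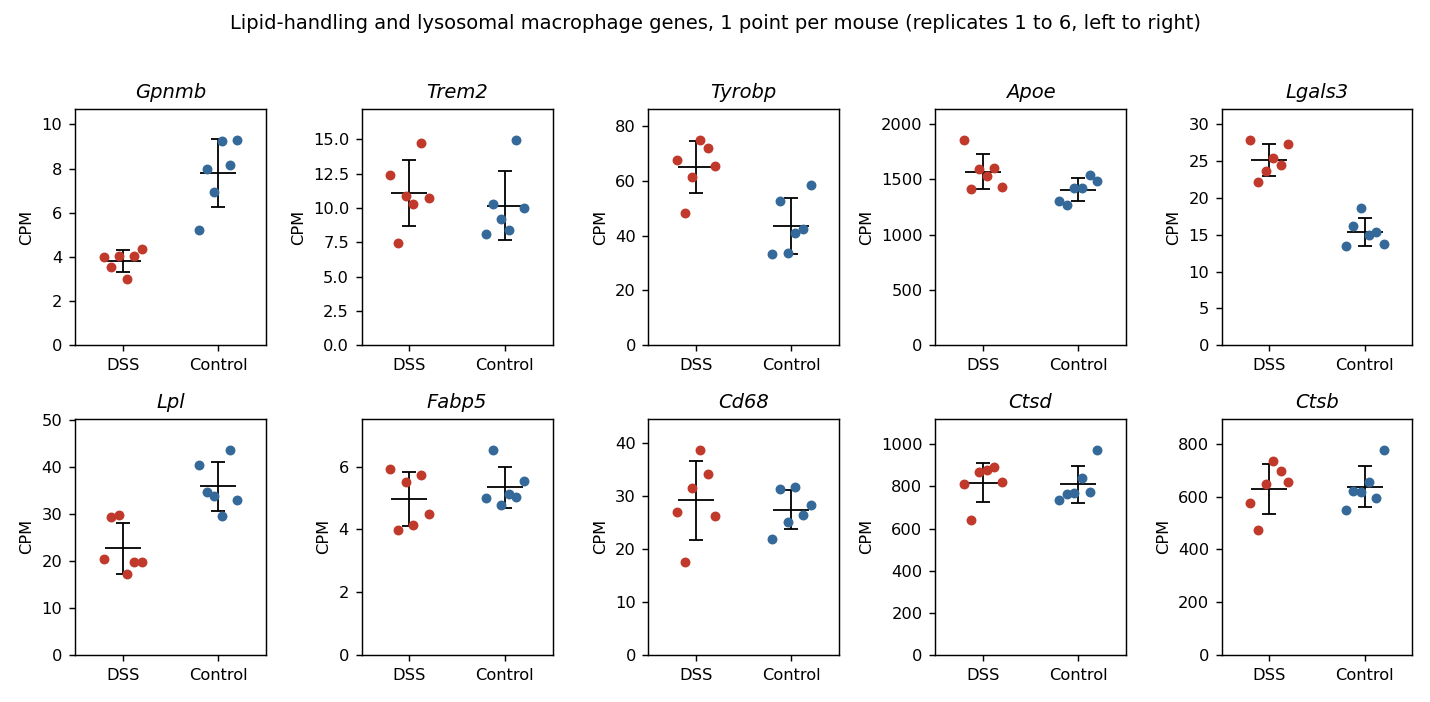
CPM (counts scaled to the TMM library size; vertical axes from 0) of the 10 genes in each mouse, DSS in red and Control in blue, with the group mean and SD in black. All 6 DSS points lie below all Control points for Gpnmb and above them for Lgals3, while the groups overlap for Ctsd and Ctsb.

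Mice are numbered as in the titles. The libraries held 9312788 to 41869997 counts, and counts of the 10 genes ran from 48 for Gpnmb to 60311 for Apoe. Titles and extraction protocol name meninges although the source field reads colon. The meningeal transcription factor gene Foxc1 lay between 83.2 and 99.6 CPM in DSS mice and between 88.0 and 116 CPM in Control mice, against 0.160 to 1.68 CPM in DSS mice and 0.252 to 2.03 CPM in Control mice for the colon epithelial gene Epcam, and Cdx2 had 0 counts throughout. The macrophage genes Csf1r and Mrc1 were present in every library, at 187 to 307 CPM and 152 to 271 CPM in DSS mice and 193 to 240 CPM and 164 to 201 CPM in Control mice. The 6 microglia markers summed to 398 to 820 CPM in DSS mice and 531 to 701 CPM in Control mice, most of it from Olfml3 (272 to 562 CPM in DSS mice, 341 to 496 CPM in Control mice) and Tmem119 (88.3 to 217 CPM in DSS mice, 126 to 163 CPM in Control mice), while P2ry12 was low (4.16 to 6.26 CPM in DSS mice, 4.98 to 8.97 CPM in Control mice). Several libraries stood apart. In Control mouse 2, ribosomal RNA features took 60.9% of counts, against 0.167% to 9.46% in the other 11 libraries. Skeletal muscle markers summed to 194 CPM in DSS mouse 2, against 11.7 to 26.6 CPM in the other 5 DSS mice and 18.3 to 26.4 CPM in Control mice. Without both of these libraries, 4 of the 10 genes were again called, 2 risen and 2 fallen. Markers of the choroid plexus, the tissue that makes cerebrospinal fluid, summed to 33.3 CPM in DSS mouse 4 and 505 CPM in DSS mouse 3, and to 50.1 and 53.1 CPM in Control mice 2 and 5, against 3308 to 6876 CPM in the other DSS mice and 3106 to 6784 CPM in the other Control mice. Without these 4 libraries, a comparison of 4 DSS with 4 Control mice chosen after the data were seen, edgeR called 305 genes in all and 1 of the 10, Lgals3; Gpnmb, Lpl and Tyrobp kept their direction and lost their call. The part of choroid plexus content in these results was not tested.

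Sequence upstream of the start site is shown for Gpnmb, which had the largest fall of the 10, for Trem2 and Cd68, which mark these cells, and for Ctsd, which carries the E-box letters tied to lysosomal genes. RefSeq on GRCm38.p6 gave promoters for 6 of the 10 genes, in 8 windows because Apoe has several starts; Tyrobp, Lpl, Fabp5 and Ctsb had no entry. The 250 bases before each start were searched on both strands for CACGTG, the palindromic E-box that TFEB, TFE3 and MITF bind, for TGANTCA, the AP-1 letters, and for the ETS letters GAGGAA, which the longer PU.1 letters GAGGAAGT contain. Capitals below mark matches; TTCCTC is GAGGAA read on the other strand.
Gpnmb, chr6:49036268-49036517, plus strand: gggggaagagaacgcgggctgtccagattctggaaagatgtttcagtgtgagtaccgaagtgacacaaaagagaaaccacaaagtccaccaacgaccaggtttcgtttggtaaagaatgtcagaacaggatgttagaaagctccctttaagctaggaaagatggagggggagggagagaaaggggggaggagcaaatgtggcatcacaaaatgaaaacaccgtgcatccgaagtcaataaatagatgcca
Trem2, chr17:48346151-48346400, plus strand: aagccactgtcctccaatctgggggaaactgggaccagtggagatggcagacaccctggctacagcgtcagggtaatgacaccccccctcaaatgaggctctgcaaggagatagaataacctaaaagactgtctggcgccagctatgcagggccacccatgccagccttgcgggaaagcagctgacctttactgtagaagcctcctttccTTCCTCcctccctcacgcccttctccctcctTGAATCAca
Cd68, chr11:69666171-69666420, minus strand: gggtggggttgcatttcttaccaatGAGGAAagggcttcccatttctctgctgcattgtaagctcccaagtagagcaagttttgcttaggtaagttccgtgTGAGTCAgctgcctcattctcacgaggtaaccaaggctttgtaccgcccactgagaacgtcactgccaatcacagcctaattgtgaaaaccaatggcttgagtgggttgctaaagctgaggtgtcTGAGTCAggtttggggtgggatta
Ctsd, first E-box, chr7:142388048-142388077, minus strand: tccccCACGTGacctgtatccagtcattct
Ctsd, second E-box, chr7:142387908-142387937, minus strand: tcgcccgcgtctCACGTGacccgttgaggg
CACGTG occurred in 1 of the 8 windows, that of Ctsd, with its first letter 245 and 98 bases before the RefSeq start, and in 6.02% of all 32851 windows of this length. TGANTCA occurred in 2 of the 8, in Cd68 at 149 and 24 bases and in Trem2 at 9 bases before the start, against 6.75% of all windows. GAGGAA occurred in 4 of the 8 (23.3% of all windows) and GAGGAAGT in none of them (2.44% of all). Gpnmb, whose level differed most, held none of these letters in this window. Ctsd, which holds 2 E-boxes, was among the 6 genes not called. GENCODE M21 starts Ctsd farther upstream than the RefSeq entry does, so that 211 of the 250 window bases, with the second E-box, lie in its annotated exons and the first E-box lies before them; windows of Lgals3 and of 1 start of Apoe also hold exon bases of the gene (47 and 173). Matches describe these letters only.

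Gpnmb, a heavily glycosylated membrane protein of lysosome-rich macrophages, osteoclasts and melanocytes, lies on chromosome 6 from 49036546 to 49070929 (GENCODE M21, GRCm38). It had 3.00 CPM at lowest, 4.01 CPM at the median and 4.36 CPM at highest in DSS mice, against 5.22, 8.06 and 9.30 CPM in Control mice. Every DSS mouse lay below the lowest Control mouse; that held for 0.823% of all tested genes, and groups did not overlap in either direction for 3.05%. Means were 3.83 ± 0.488 CPM in DSS mice and 7.80 ± 1.54 CPM in Control mice (SD, n = 6 each), a log2 fold change of -1.02 ± 0.15 (SE; edgeR adjusted p = 0.00153). These values rest on 48 to 131 counts in DSS libraries and 77 to 286 counts in Control libraries. The fall was called with each mouse left out in turn, at log2 fold changes of -1.12 to -0.95. Without the 4 libraries low in choroid plexus markers it was -0.91 (edgeR adjusted p = 0.0503).

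Lpl encodes lipoprotein lipase, the secreted enzyme that frees fatty acids from lipoprotein triglycerides, and is made by adipocytes, muscle and some macrophages. On chromosome 8 from 68880491 to 68907448, it had 17.2, 20.05 and 29.8 CPM at lowest, median and highest in DSS mice and 29.5, 34.2 and 43.6 CPM in Control mice. In DSS mice 5 of 6 values were below the lowest Control value; DSS mouse 3 overlapped the Control range, and DSS mouse 2 lay close under it at 29.2 CPM. Lpl averaged 22.7 ± 5.4004 CPM in DSS mice and 35.8 ± 5.19 CPM in Control mice (SD, n = 6 each; log2 fold change -0.67 ± 0.14 SE, edgeR adjusted p = 0.0154). The call held with each mouse left out, with the highest adjusted p at 0.0451, and was lost without the 4 libraries low in choroid plexus markers (log2 fold change -0.60, edgeR adjusted p = 0.0827). Adipocyte markers were near the floor in both groups, with a summed level of 8.15 to 12.2 CPM in DSS mice and 6.32 to 10.8 CPM in Control mice over 7 genes, of which only Plin4 passed the filter. The 4 genes Adipoq, Plin1, Cidec and Lep each had at most 10 counts in any library. Skeletal muscle markers summed to 194 CPM in DSS mouse 2 and 15.9 CPM in DSS mouse 3, the DSS mice highest for Lpl. The part of muscle RNA in the Lpl values was not tested.

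Lgals3 encodes galectin-3, a lectin that binds beta-galactosides and gathers on damaged lysosomes, and is abundant in macrophages and other myeloid cells. It lies on chromosome 14 from 47367751 to 47386160. Its level was 22.2, 24.96 and 27.9 CPM at lowest, median and highest in DSS mice, against 13.5, 15.2 and 18.7 CPM in Control mice. All 6 DSS mice were above the highest Control mouse, as in 2.23% of all tested genes, and the spread within each group was small (coefficient of variation 8.70% in DSS mice, 12.3% in Control mice). The means of 25.2 ± 2.19 CPM in DSS mice and 15.4 ± 1.90 CPM in Control mice (SD, n = 6 each) gave a 1.64-fold difference (log2 fold change 0.72 ± 0.09 SE, edgeR adjusted p = 0.000460). Leaving out any 1 mouse kept the log2 fold change between 0.68 and 0.79 and the call in place; without the 4 libraries low in choroid plexus markers it was 0.78 (edgeR adjusted p = 0.0107).

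Tyrobp encodes the adaptor with an activation motif (ITAM) that carries the signals of TREM2 and of many other receptors of myeloid and NK cells. It lies on chromosome 7 from 30413760 to 30417585. It had 48.1, 66.6 and 74.9 CPM at lowest, median and highest in DSS mice, against 33.4, 41.6 and 58.2 CPM in Control mice. In DSS mice 5 of 6 values were above the highest Control value; DSS mouse 2, at 48.1 CPM, was below Control mice 2 and 6. Tyrobp averaged 64.9 ± 9.53 CPM in DSS mice and 43.5 ± 10.1 CPM in Control mice (SD, n = 6 each; log2 fold change 0.58 ± 0.14 SE, edgeR adjusted p = 0.0325). This call was lost without any one of Control mice 1, 3, 4 and 5 or DSS mice 1, 4, 5 and 6, at edgeR adjusted p-values of 0.0550 to 0.0815, while the log2 fold change stayed between 0.51 and 0.69 with each mouse left out. Without the 4 libraries low in choroid plexus markers it was 0.63 (edgeR adjusted p = 0.157).

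Trem2, whose protein pairs with TYROBP, was not called. It lies on chromosome 17 from 48346401 to 48354147 and had 7.41, 10.8 and 14.7 CPM at lowest, median and highest in DSS mice, against 8.09, 9.58 and 14.95 CPM in Control mice. The ranges nearly coincided, with the highest value of all in Control mouse 5. Means were 11.1 ± 2.43 CPM in DSS mice and 10.2 ± 2.50 CPM in Control mice (SD, n = 6 each; log2 fold change 0.13, 95% interval -0.25 to 0.51; edgeR adjusted p = 0.753). Whether Tyrobp and Trem2 differ in their change was not tested.

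Apoe encodes apolipoprotein E, the lipid carrier of macrophages, astrocytes and liver, and Fabp5 a carrier of fatty acids inside cells. Apoe, on chromosome 7 from 19696109 to 19699188, was the most abundant of the 10, with 1407 to 1855 CPM in DSS mice (median 1562) and 1265 to 1533 CPM in Control mice (median 1422). In DSS mice 3 of 6 values lay above the highest Control value; the log2 fold change was 0.16 (95% interval -0.07 to 0.39; edgeR adjusted p = 0.441). Fabp5, on chromosome 3 from 10012548 to 10016607, had 3.96 to 5.92 CPM in DSS mice and 4.76 to 6.54 CPM in Control mice, with a log2 fold change of -0.10 (95% interval -0.39 to 0.20; edgeR adjusted p = 0.771). With 53 to 232 counts per library it is among the 2 least counted of the 10 genes, the other being Gpnmb.

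None of the 3 lysosomal members was called, and their intervals span 0. Ctsd, the aspartic protease cathepsin D gene on chromosome 7 from 142375911 to 142388038, had 641 to 891 CPM in DSS mice (median 846) and 736 to 975.3 CPM in Control mice (median 771; log2 fold change 0.02, 95% interval -0.22 to 0.25; edgeR adjusted p = 0.964). Ctsb, the cysteine protease cathepsin B gene on chromosome 14 from 63122462 to 63145923, had 473 to 735 CPM in DSS mice and 552 to 779 CPM in Control mice (log2 fold change -0.01, 95% interval -0.28 to 0.25; edgeR adjusted p = 0.973). Cd68, the macrophage lysosomal glycoprotein gene on chromosome 11 from 69664213 to 69666153, had 17.5 to 38.8 CPM in DSS mice and 21.9 to 31.7 CPM in Control mice (log2 fold change 0.09, 95% interval -0.25 to 0.44; edgeR adjusted p = 0.820). In all 3 genes DSS mouse 2 had the lowest value of the 12 mice. Exons of Ctsb share bases with Fdft1 on the opposite strand, which had 268 to 1243 counts, so reads there may be assigned either way. Exons of Ctsd share bases with the same-strand model Gm49369, which is not among the counted symbols.

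**Figure D2:**
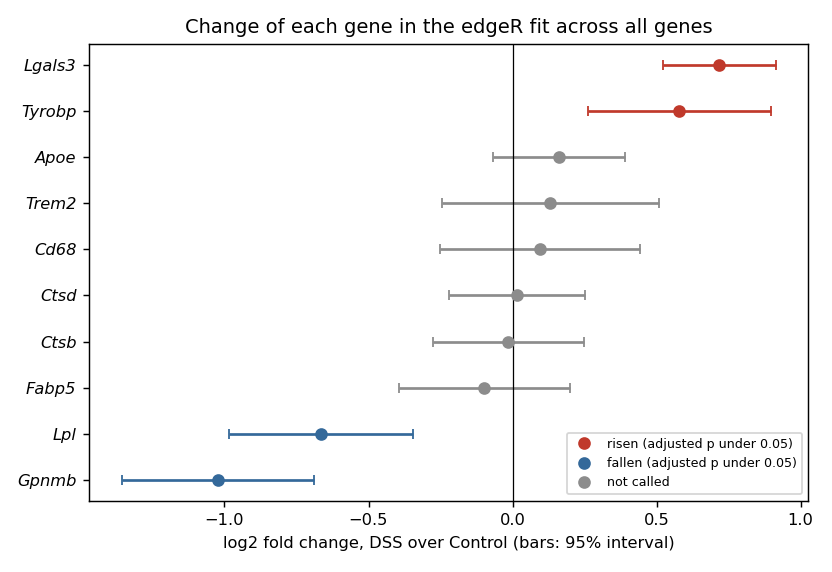
Log2 fold change of each gene, DSS over Control, from the fit across all tested genes, with 95% intervals; red marks risen, blue fallen and grey not called. Intervals of Lgals3 and Tyrobp lie above 0, those of Gpnmb and Lpl below 0, and those of the other 6 genes span 0.

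Per kilobase of exon, levels spanned 3 orders of magnitude and kept nearly the same order in both groups. In CPM per kilobase, Apoe led with 734 ± 75.8 in DSS mice and 657 ± 48.3 in Control mice, followed by Ctsd with 348 ± 39.6 in DSS mice and 344 ± 37.3 in Control mice (SD, n = 6 each). Ctsb and Tyrobp came next at 104 ± 15.6 and 97.3 ± 14.3 in DSS mice, where their ranges overlapped, and at 105 ± 12.8 and 65.2 ± 15.1 in Control mice, where the lowest Ctsb value of 91.2 was above the highest Tyrobp value of 87.3. Cd68 had 23.2 ± 5.88 in DSS mice and 21.9 ± 2.98 in Control mice, and Lgals3 13.5 ± 1.18 in DSS mice and 8.29 ± 1.02 in Control mice; their ranges overlapped in DSS mice and not in Control mice. The 4 lowest were Trem2 (2.24 ± 0.491 in DSS mice, 2.05 ± 0.506 in Control mice), Lpl (2.16 ± 0.515 in DSS mice, 3.42 ± 0.495 in Control mice), Fabp5 (1.39 ± 0.241 in DSS mice, 1.495 ± 0.180 in Control mice) and Gpnmb (0.588 ± 0.0749 in DSS mice, 1.20 ± 0.237 in Control mice). Among these, neighbouring ranges overlapped in both groups, except that in DSS mice every Gpnmb value (highest 0.669) was below every Fabp5 value (lowest 1.11). Lengths are unions of all annotated exons. With the longest transcript instead, Lpl was at 5.51 in DSS mice and 8.70 in Control mice and stood above Trem2 in both groups.

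Within the groups, some of the genes varied together from mouse to mouse. This was measured on log2 CPM after taking off each group's mean, so the DSS difference does not enter, over 45 pairs and 12 mice, with permutation of mice within groups. Ctsd and Ctsb were the closest pair (Pearson r = 0.95, permutation p adjusted over 45 pairs 0.00540; Spearman rho = 0.90, adjusted p = 0.0157), and r was 0.86 without DSS mouse 2 and Control mouse 6 (permutation p = 0.00390). Ctsb also went with Cd68 (r = 0.83, permutation adjusted p = 0.0487; rho = 0.73, adjusted p = 0.163) and with Tyrobp (r = 0.78, permutation adjusted p = 0.0487; rho = 0.71, adjusted p = 0.163). Both relations rest on those mice farthest from the median: without DSS mice 2 and 4, r with Cd68 was 0.58 (permutation p = 0.102), and without Control mouse 6 and DSS mouse 2, r with Tyrobp was 0.55 (permutation p = 0.0924). Trem2 and Tyrobp had r = 0.52 (permutation adjusted p = 0.332) and rho = 0.64 (permutation adjusted p = 0.181), with r = 0.51 without Control mouse 5 and DSS mouse 2. Lpl had a negative r with each of the other 9 genes, and the lowest permutation adjusted p was 0.278, with Ctsb. Without the 2 farthest mice r was positive for Lpl with Fabp5 (0.050, without DSS mice 3 and 2) and with Apoe (0.22, without DSS mice 1 and 2). All pairs share library depth and tissue composition, whose part was not tested.

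**Figure D3:**
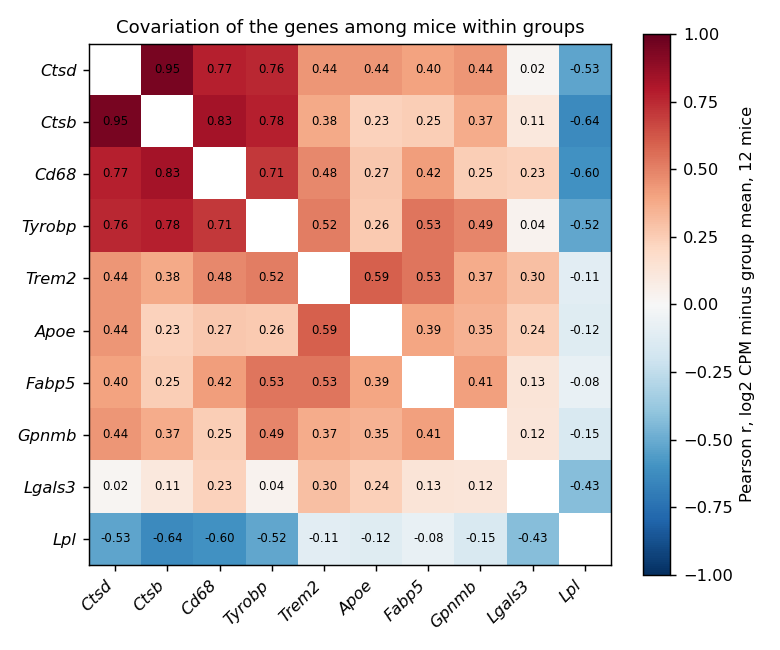
Pearson correlation of each pair of genes over 12 mice, on log2 CPM minus the group mean (red positive, blue negative). Ctsd, Ctsb, Cd68 and Tyrobp form the block of highest values, from 0.71 to 0.95, and Lpl is negative with every other gene. No pair with Lpl had a permutation adjusted p under 0.05.

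Likeness was measured over 13047 other named genes, those whose log2 CPM averaged 1 or more. The 3 whose deviations were most like those of Gpnmb were Mir3057 (r = 0.92), Laptm4b (r = 0.91) and Zfp784 (r = 0.91). For Trem2 they were Faap20 (r = 0.95), Cnga3 (r = 0.94) and Hmgn1 (r = 0.93), and for Tyrobp Tspan9 (r = 0.95), Rps15a (r = 0.94) and Dtymk (r = 0.92). Those most like Ctsd were Amacr (r = 0.96), Arfgap3 (r = 0.96) and Lrpap1 (r = 0.96), and Vegfc (r = 0.90) and Slc6a7 (r = 0.88) were among those most like Lpl. These are the highest of many values over 12 mice and carry no test.

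Macrophage markers had positive log2 fold changes throughout the pan-macrophage list, and most were not called. Among all tested genes the share risen was 3.68%. The 8 pan-macrophage markers summed to 371 to 608 CPM in DSS mice (median 521) and 366 to 448 CPM in Control mice (median 428), and 5 of 6 DSS mice were above every Control mouse, with DSS mouse 2 the exception. All 8 had positive log2 fold changes and 3 of them rose, Adgre1 and Fcgr1 among them; 1 rose without Control mouse 3, Control mouse 5, DSS mouse 4 or DSS mouse 6, and 6 without DSS mouse 2. Without the 4 libraries low in choroid plexus markers 1 rose, and neither Adgre1 nor Fcgr1 was called. Of the 12 border-associated macrophage markers, Siglec1 rose and the others, Mrc1 and Cd163 among them, were not called; their sum was 734 to 1336 CPM in DSS mice and 754 to 894 CPM in Control mice. The Siglec1 call (edgeR adjusted p = 0.0404) was lost without Control mice 3, 4, 5 or 6 or DSS mice 1, 4, 5 or 6 (adjusted p 0.0577 to 0.1003), and without the 4 libraries low in choroid plexus markers.

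Per unit of the pan-macrophage sum, Gpnmb was 0.00493 to 0.00949 in DSS mice and 0.0117 to 0.0220 in Control mice, without overlap. Lpl was 0.0283 to 0.0787 in DSS mice and 0.0703 to 0.101 in Control mice, with 5 of 6 DSS mice below every Control mouse. Tyrobp was 0.120 to 0.135 in DSS mice and 0.0752 to 0.130 in Control mice, so that only 2 of 6 DSS mice were above the highest Control mouse. For Lgals3 the ratio was 0.0419 to 0.0597 in DSS mice and 0.0303 to 0.0511 in Control mice, with 3 DSS mice above all Control mice. Ctsb and Ctsd had ratios of 1.14 to 1.31 and 1.44 to 1.73 in DSS mice, against 1.24 to 1.74 and 1.65 to 2.18 in Control mice, and 3 of 6 DSS mice were below all Control mice for each. Fabp5 was 0.00682 to 0.0117 in DSS mice and 0.0112 to 0.0155 in Control mice, with 5 of 6 DSS mice below all Control mice, as for Lpl. For Trem2, Cd68 and Apoe the mean log2 ratio in DSS mice less that in Control mice was -0.13, -0.20 and -0.10. Of 6 DSS mice, 1, 1 and 2 were below all Control mice. The pan-macrophage sum was itself higher in 5 of 6 DSS mice, which lowers these ratios. Per unit of the border-associated macrophage sum, all 6 DSS mice were below all Control mice for Gpnmb and 5 for Lpl. That count was 3 for Fabp5, 2 for Ctsd and 1 for Ctsb, while 4 were above for Lgals3 and 2 for Tyrobp. Shares over all genes were not computed for such ratios.

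Markers of other cells that express these genes also differed between the groups. Neutrophil markers summed to 254 to 1359 CPM in DSS mice and 67.3 to 196 CPM in Control mice. All 10 of them rose, beside 3.68% of all tested genes. Classical monocyte markers summed to 136 to 277 CPM in DSS mice and 90.0 to 107 CPM in Control mice, and 7 of 8 rose, among them Ly6c2 (1.49 ± 0.16 SE on the log2 scale). Galectin-3 and TYROBP are made by both cell types. DSS mouse 3 had the lowest neutrophil and monocyte sums of the DSS mice, 254 and 136 CPM, still above every Control mouse. There Lgals3 was 23.7 CPM and Tyrobp 61.2 CPM, each above every Control mouse. Among DSS mice, only DSS mouse 2 was lower for each of these 2 genes, at 22.2 and 48.1 CPM. The neutrophil and monocyte sums of DSS mouse 2 were 1293 and 238 CPM. The part of neutrophils and monocytes in the rise of Lgals3 and Tyrobp was not tested.

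Osteoclast markers fell beside Gpnmb. Of 10 genes 9 were tested and 7 fell, led by Acp5, the tartrate-resistant acid phosphatase gene, at 41.5 ± 20.6 CPM in DSS mice and 141 ± 40.9 CPM in Control mice (SD, n = 6 each; log2 fold change -1.76 ± 0.27 SE, edgeR adjusted p = 0.00190). The share fallen over all tested genes was 1.26%. Osteoclast markers summed to 236 to 406 CPM in DSS mice and 391 to 615 CPM in Control mice, and only DSS mouse 3 reached the Control range. The sums overlapped only between DSS mouse 3 and Control mouse 6 (406 and 391 CPM), where Gpnmb was 4.03 and 9.30 CPM. The number of osteoclast markers fallen was 3 without Control mice 2, 3 or 5 or DSS mouse 6, and 4 without DSS mice 1 or 5. It was 5 without the 4 libraries low in choroid plexus markers. Melanocyte markers, another set of cells with Gpnmb, were low: 4 of 8 were tested, only Dct fell, and the sum was 18.3 to 36.1 CPM in DSS mice and 27.6 to 39.3 CPM in Control mice. The Dct call survived leaving out Control mouse 1 or DSS mouse 5 and no other single mouse, and it was lost without the 4 libraries low in choroid plexus markers. The part of osteoclast RNA in the fall of Gpnmb was not tested.

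**Figure D4:**
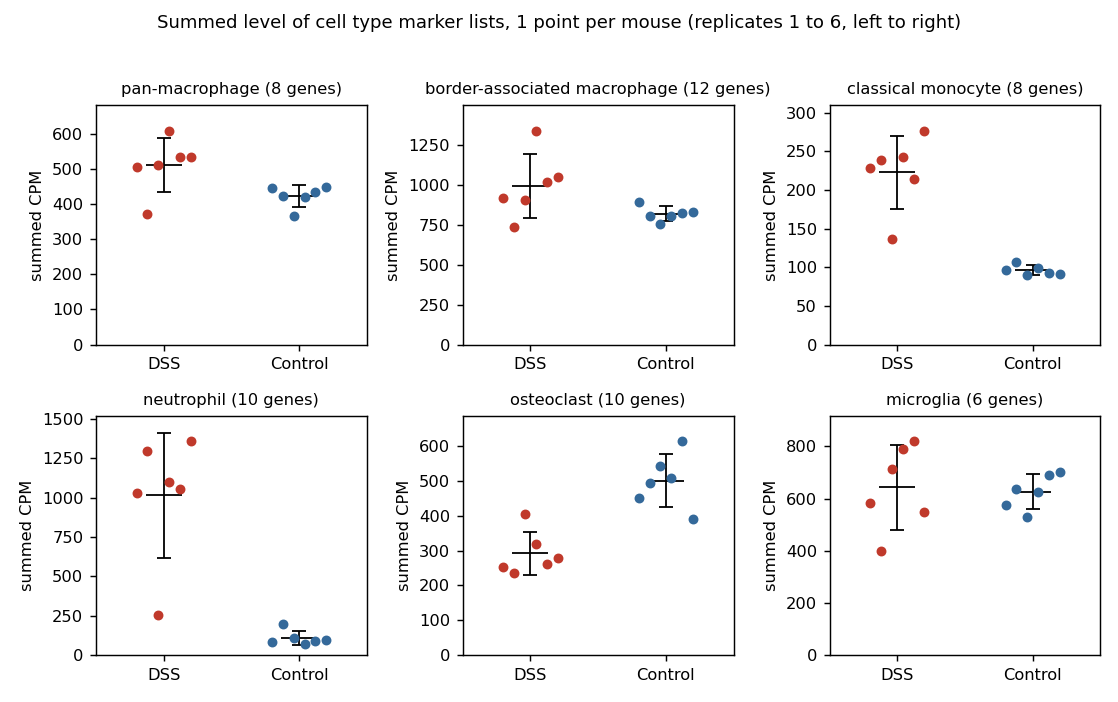
Summed CPM of the marker genes of 6 cell types in each mouse (vertical axes from 0), DSS in red and Control in blue, with mean and SD in black. Neutrophil and monocyte sums were higher in all 6 DSS mice, the osteoclast sum was lower apart from 1 overlapping DSS mouse, and macrophage and microglia sums overlapped.

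Genes listed for TREM2-TYROBP receptor signalling mostly rose. Beside Syk and other signalling genes, they include other myeloid receptor genes such as Trem1, Trem3, Clec5a and Cd300lb. This list was chosen with earlier results of these data known. Of its 21 genes, all tested, 15 rose and none fell, beside 3.68% risen and 1.26% fallen over all tested genes. The median log2 fold change was 0.64, beside -0.02 over all tested genes. Among those that rose were Treml2 (3.54 ± 1.13 CPM in DSS mice, 0.653 ± 0.314 CPM in Control mice, SD, n = 6 each; log2 fold change 2.46 ± 0.31 SE, edgeR adjusted p = 0.000607) and the activating receptor gene Sirpb1a (1.46 ± 0.19 SE). Syk, the kinase that binds phosphorylated TYROBP, and Trem1, the TYROBP-coupled receptor of neutrophils and monocytes, are named after their values were seen. Syk had 35.8 ± 6.73 CPM in DSS mice and 21.7 ± 3.09 CPM in Control mice, and Trem1 1.46 ± 0.577 CPM in DSS mice and 0.184 ± 0.204 CPM in Control mice (SD, n = 6 each). Between 12 and 15 of the list rose with each mouse left out, and 10 without the 4 libraries low in choroid plexus markers, where Syk was not called. Neutrophils and monocytes, whose marker sums are given above, use many of these genes.

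Most genes of lipid uptake and release were not called. Of 10 tested uptake receptors 2 rose and 1 fell, with a median log2 fold change of 0.05. Over all tested genes the shares were 3.68% risen and 1.26% fallen. Cd36, the scavenger receptor for oxidized lipoprotein and fatty acids, fell to 27.3 ± 1.73 CPM in DSS mice, against 37.8 ± 4.56 CPM in Control mice (SD, n = 6 each; log2 fold change -0.47 ± 0.08 SE, edgeR adjusted p = 0.00368), with all 6 DSS mice below all Control mice. Cd300lf, a phospholipid receptor gene of myeloid cells, rose by 1.52 ± 0.29 SE on the log2 scale, as did the low-abundance scavenger receptor gene Olr1 by 1.69 ± 0.44 SE. The Olr1 call was lost without Control mice 2, 3, 5 or 6 or DSS mice 1, 4 or 6 (edgeR adjusted p 0.0569 to 0.105), and without the 4 libraries low in choroid plexus markers.

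None of the 23 tested genes of lipid efflux, storage and transfer was called by edgeR. An unadjusted edgeR p under 0.05 was held by 5 of the 23, beside 3525 of all 18593 tested genes. The DESeq2 Wald test called 2, limma-voom 1 and limma-trend 0. With each mouse left out in turn 1 or 2 were called, except that none was without DSS mouse 5 or 6. Abca1, the cholesterol exporter, had a log2 fold change of 0.25 ± 0.10 SE and Plin2, the lipid droplet coat gene, 0.07 ± 0.13 SE (edgeR adjusted p = 0.204 and 0.829). They are named after their values were seen. Around Lpl itself, 6 of 11 control genes were tested and 1 rose: Lipg, which encodes endothelial lipase (2.84 ± 1.58 CPM in DSS mice, 0.595 ± 0.353 CPM in Control mice, SD, n = 6 each; log2 fold change 2.25 ± 0.47 SE). The share risen over all tested genes was 3.68%. Among the 6 control genes, 2 rose without any one of Control mice 1 to 5 or DSS mice 1 to 4, and 3 without Control mouse 6.

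Other lysosomal genes had mostly negative log2 fold changes, and most were not called. Of 36 tested hydrolases and cofactors 1 rose and 4 fell (26 of 36 log2 fold changes were negative; median -0.08). In the lysosomal membrane and proton pump list, 1 of 22 rose and 2 fell, with 18 of 22 negative and a median of -0.17. Over all tested genes 3.68% rose and 1.26% fell. An unadjusted edgeR p under 0.05 was held by 13 of 36 and 13 of 22, against 3525 of 18593 tested genes. Both lists were chosen with earlier results of these data known. The 2 largest falls were of Acp5 and of the pump subunit gene Atp6v0d2 (3.34 ± 1.55 CPM in DSS mice, 9.99 ± 2.47 CPM in Control mice, SD, n = 6 each; log2 fold change -1.58 ± 0.28 SE, edgeR adjusted p = 0.00428), both of which are also osteoclast markers here. Atp6v1a, a pump subunit gene, fell by 0.30 on the log2 scale, Gla, named after its value was seen, fell by 0.41, and Pla2g15, a lysosomal phospholipase gene, and Tcirg1, another pump gene, rose by 0.43 and 0.31. Each of these 4 calls was lost without at least 4 of the 12 mice in turn. Of the hydrolases, between 1 and 3 were called without any one of Control mice 2 to 6 or DSS mice 1, 3, 4, 5 or 6. In the membrane list, 1 was called without Control mouse 3 or DSS mice 4 or 6, and 5 without Control mouse 1 or DSS mouse 5. Without the 4 libraries low in choroid plexus markers, 1 fell in each of these 2 lists and none rose, and the 4 calls were lost. DESeq2 and limma-voom each called 8 of the membrane list, 7 of them fallen.

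Among the 12 other cathepsins 3 rose and 1 fell, beside 3.68% risen and 1.26% fallen over all tested genes. Their median log2 fold change was 0.16. Ctsg, a granule protease of neutrophil precursors, rose by 4.03 ± 0.48 SE on the log2 scale, to 6.14 ± 3.25 CPM in DSS mice, against 0.352 ± 0.163 CPM in Control mice (SD, n = 6 each). Ctss, the cathepsin of antigen-presenting cells, was at 112 ± 22.2 CPM in DSS mice and 73.6 ± 6.06 CPM in Control mice (log2 fold change 0.61 ± 0.12 SE, edgeR adjusted p = 0.0100), and was called with each mouse left out. Ctsk, the collagen-degrading cathepsin of osteoclasts, fell to 107 ± 28.95 CPM in DSS mice, against 170 ± 17.3 CPM in Control mice (edgeR adjusted p = 0.0221); its call was lost without Control mice 2, 3 or 5 or DSS mice 1 or 6 (adjusted p 0.0510 to 0.0597). Ctsc rose by 0.47 (edgeR adjusted p = 0.0498), a call held only without Control mouse 6, DSS mouse 2 or DSS mouse 3 among single mice left out. With any one of Control mice 2, 3 or 5 or DSS mice 1 or 6 left out, 2 cathepsins of the list were called; without the 4 libraries low in choroid plexus markers 2 were, Ctsg and Ctsk.

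Of the 4 genes of the MiT/TFE family, Tfec rose (2.81 ± 0.275 CPM in DSS mice, 1.70 ± 0.453 CPM in Control mice, SD, n = 6 each, edgeR adjusted p = 0.0390). Tfeb, Tfe3 and Mitf, whose proteins bind the E-box letters given above, were not called. The Tfec call was lost without Control mice 1, 3 or 5 or DSS mice 1, 3, 4, 5 or 6 (edgeR adjusted p 0.0616 to 0.0945). The galectin list had 5 tested genes beside Lgals3: the galectin genes Lgals1, Lgals4, Lgals8 and Lgals9, and Lgals3bp, which encodes a galectin-3 binding protein. Lgals9 rose by 0.39 ± 0.09 SE on the log2 scale, and 2 of the list rose without DSS mouse 2. Without the 4 libraries low in choroid plexus markers neither Tfec nor any gene of the galectin list was called.

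The other genes of the plaque-associated microglial program, to which Trem2, Tyrobp, Apoe, Lpl and Ctsd belong, did not move together either. Of 22 tested genes 4 rose and none fell, beside 3.68% risen and 1.26% fallen over all tested genes. The median log2 fold change of the 22 was 0.03. Cd52 (32.0 ± 3.53 CPM in DSS mice, 16.3 ± 1.43 CPM in Control mice, SD, n = 6 each), the phagocyte oxidase gene Cybb (57.3 ± 9.30 CPM in DSS mice, 31.3 ± 2.65 CPM in Control mice) and the inhibitory receptor gene Lilrb4a (25.2 ± 6.11 CPM in DSS mice, 12.0 ± 1.05 CPM in Control mice) had the smallest p-values; Lilrb4a has a close paralog with which reads may be shared. The fourth, named after its value was seen, was the chemokine gene Ccl6 (log2 fold change 1.22 ± 0.21 SE). All 4 were called with each mouse left out and without the 4 libraries low in choroid plexus markers. Spp1, osteopontin, and Itgax, named after their values were seen, were not called, at -0.80 ± 0.27 SE and 0.56 ± 0.22 SE on the log2 scale (edgeR adjusted p = 0.114 and 0.165).

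**Figure D5:**
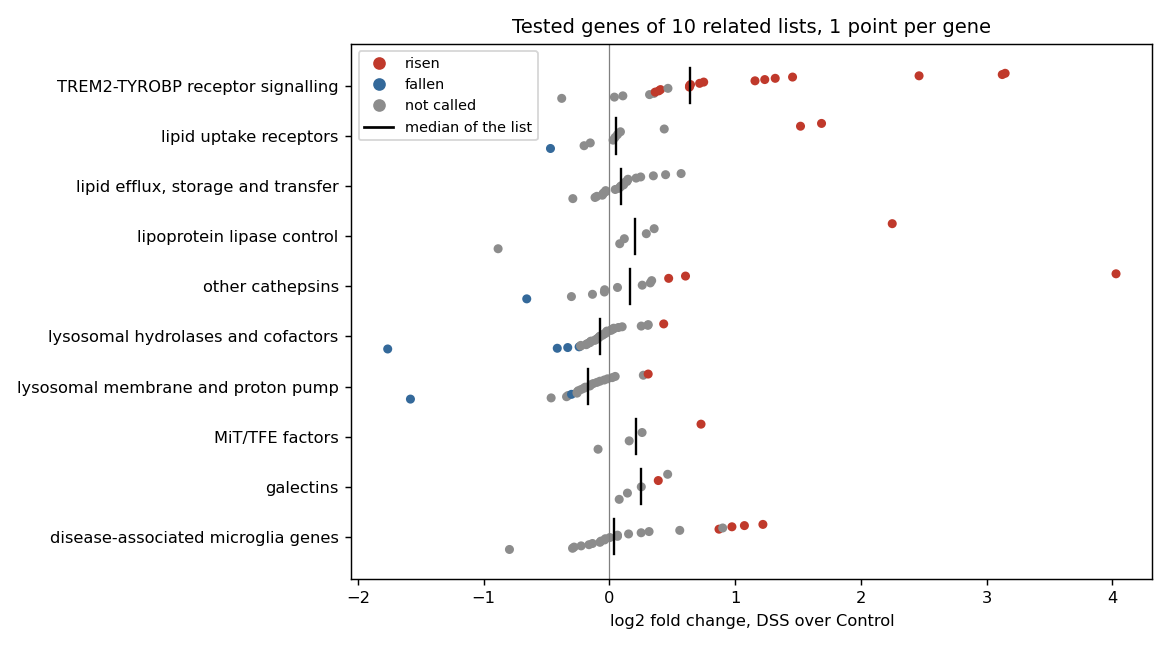
Log2 fold change, DSS over Control, of the tested genes of 10 related lists (1 point per gene; red risen, blue fallen, grey not called), with the median of each list as a black bar. The TREM2-TYROBP list lies mostly to the right with a median of 0.64, and the lysosomal hydrolase and membrane lists centre at -0.08 and -0.17.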

How the data were processed

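Total RNA of the meninges of 12 mice was sequenced from stranded libraries, per the labels' protocols. The submitters' processing notes name HISAT2, featureCounts, Trim Galore, FastQC, CASAVA and the build mm10. Not given in the sources used here: versions, annotation, strand setting and handling of multiply mapped reads. The authors deposited a table of raw counts per gene symbol and a table of normalized signal; checked on the values, each of the 12 columns of the signal table is the count column divided by its median-of-ratios size factor. Columns were matched to mice by heading, and 0 columns belonged to no sample. Of 47747 symbols, 45251 (94.8%) were found in GENCODE M21 (GRCm38, the assembly of mm10).

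Counts were tested with edgeR 4.0.16 in R 4.3.3: filterByExpr (minimum count 10, minimum total 15), TMM, and the two-sided quasi-likelihood F-test on treatment alone, Benjamini-Hochberg adjusted over all 18593 tested genes. "Rose" and "fell" mean an adjusted p under 0.05. SE is the absolute log2 fold change divided by the root of F, and 95% intervals use 10 residual degrees of freedom. CPM was computed on TMM-scaled totals, and its log2 with a prior count of 2. The steps were tested on simulated data. The design text counts 12 mice, so p-values measure the spread between mice. Between libraries of a group, chi-square per degree of freedom was at least 20.3, so all 12 differ beyond sampling noise. Correlations used 100000 permutations within groups (10000 without the 2 farthest mice). Depth of 9312788 to 41869997 counts sets the counting error.

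Members and gene lists were chosen with earlier results of these data known. Named were the 10 members, at most 3 risen and 3 fallen called genes of each list by p, and the 3 genes most like Gpnmb, Trem2, Tyrobp, Ctsd and Lpl. A few genes that this rule names are not reported here. Marker genes such as Csf1r, Mrc1, Tmem119 and Ly6c2, and genes marked in the text as named after their values were seen, fall outside it. Alternatives were DESeq2 1.42.0 size factors and Wald test, limma 3.58.1 (voom with quality weights, and trend on the deposited signal with a pseudocount of 1), other filters, ribosomal RNA left out, a replicate block, an adjusted p under 0.1, mice left out, and, chosen after seeing the data, the 4 libraries low in choroid plexus markers left out.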

Additional observations from a re-analysis of the deposited data

Results flagged for a closer look

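A mouse far from the 5 others of its group was looked for in 20 groups (10 genes, DSS and Control), of which chance flags about 1 in 20. Ctsd in DSS replicate 2 had 641 CPM, against 811 to 891 CPM in the other DSS mice, a gap of 0.680 of the group's range, above Dixon's critical value. Trem2 in Control replicate 5 had 14.95 CPM, against 8.09 to 10.3 CPM in the other Control mice, a gap of 0.676 of the range. DSS replicate 2 was also the lowest of the 12 mice for Ctsb and Cd68 and carried the skeletal muscle markers. Without it, the log2 fold change of Ctsd was 0.091 and that of Ctsb 0.069, and neither was called.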

How the results depend on the processing

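The number of changed genes was 919, and 1551 by the DESeq2 Wald test, 1641 at an adjusted p under 0.1, and 538 to 1379 with each mouse left out; the lowest were 538 and 559 without DSS replicates 6 and 4 and 608 without Control replicate 5, the highest 1379 without DSS replicate 2. Leaving out the 4 libraries low in choroid plexus markers (DSS 3 and 4, Control 2 and 5), chosen after seeing the data, gave 305 changed genes, 282 risen and 23 fallen, and 1 of the 10 members, against 4; under the other 22 alternatives 3 or 4 members were called. Lgals3 kept its call in all 23 (0.68 to 0.79), and Gpnmb (-1.12 to -0.91) and Lpl (-0.76 to -0.60) in all but that one. Tyrobp ran from 0.51 to 0.72 and lost its call in 10: that one, 8 that leave out a mouse, and the replicate block (0.60, edgeR adjusted p = 0.0649; 708 genes changed). Trem2 and Apoe were called in none and kept their sign. The sign of values near 0 turned: Ctsb was 0.062 and Fabp5 0.029 without Control replicate 2 and DSS replicate 2 together, Ctsd was -0.045 and Fabp5 0.0056 without the 4 libraries, and with each mouse left out Cd68 ran from -0.0024 to 0.21, Ctsb from -0.062 to 0.069 and Ctsd from -0.010 to 0.091. The cause was not tested. Replicate numbers share no animal, and deviations of same-numbered mice correlated at -0.19 to 0.15 over genes, with 1 of 12 mice closest to its own number. Among the lists, DESeq2 and limma-voom each called 8 plaque-associated genes (4 by edgeR) and 8 of the lysosomal membrane list (3 by edgeR); the block called 2 hydrolases (5 without it) and 1 of the membrane list. With the longest transcript in place of all exons, 10 of 20 levels per kilobase moved by more than 1 SD. Gpnmb and Fabp5, with the fewest counts, carry the largest counting error.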
